A study of Mus musculus with 4 samples.

Results

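The genes of the voltage-gated calcium channels were followed through 4 RNAseq libraries of mouse brain with and without PTBP2, the neuronal polypyrimidine tract binding protein. The 10 genes are *Cacna1a*, *Cacna1b*, *Cacna1c*, *Cacna1d*, *Cacna1e*, *Cacna1g*, *Cacna2d1*, *Cacnb1*, *Cacnb3* and *Cacnb4*. All exon trios of these genes were taken, where a trio is a middle exon with the exon on each side of it, and the gene was found by matching the lengths of the middle exon and both introns to the GENCODE mouse annotation (release 21). This gave 455 of the 228333 trios in the tables, of which 428 matched by all 3 lengths and 27 by an exon boundary shared with a matched trio. They hold 358 different middle exons and 12 retained introns or alternative splice sites.

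PolyA+ RNA came from whole brain at embryonic day 18 (E18) of *Ptbp2*-NesKO embryos and wild-type (WT) littermates, 2 brains each. It came from dissected cortex at postnatal day 1 (P1) of 1 *Ptbp2*-EmxKO animal and 1 WT littermate. With 1 library for each group, how far animals differ cannot be measured and no difference has a replicate check. All animals were of the Mixed C56Bl/6:129S2 background. In the NesKO, exon 4 of *Ptbp2* is flanked by loxP sites and removed by Cre driven from the nestin promoter, which is active in neural progenitors of the whole nervous system. In the EmxKO it is removed by Emx1-Cre in projecting neurons of the cortex, hippocampus and olfactory bulb, so that the cortex also holds cells outside that lineage. The E18 libraries were not strand specific and the P1 libraries were, so stage, tissue, Cre line and library protocol change together between the stages.

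A voltage-gated calcium channel is built on a pore-forming alpha1 subunit, which carries 4 repeated domains with 6 membrane segments each and decides the channel class. CaV2.1 (*Cacna1a*), CaV2.2 (*Cacna1b*) and CaV2.3 (*Cacna1e*) serve mainly transmitter release, CaV1.2 (*Cacna1c*) and CaV1.3 (*Cacna1d*) are the L-type channels that couple depolarization to gene expression, and CaV3.1 (*Cacna1g*) is a low-threshold T-type channel of burst firing. The alpha2-delta protein *Cacna2d1* and the beta subunits *Cacnb1*, *Cacnb3* and *Cacnb4* carry the channel to the membrane and tune its gating. The alpha1 transcripts are long and have many alternative exons, some of them used one or the other, and PTB proteins are known to repress exons through CU-rich sequence beside them.

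The exons that the results turn on are shown first, from GENCODE transcripts, 5′ to 3′ in the direction of transcription, with positions in mm9. The pairs are shown because the exons of a pair have equal length and exclude each other. Capitals mark the bases at which the exons of a pair differ. In *Cacna1c* the 104-nt exons code for the last membrane segment of the first domain, and 72 of their 104 bases are identical (69.2%). In *Cacna1d* the exons at the same place share 82 of 104 bases (78.8%).
*Cacna1c* upstream exon, chr6:118692283-118692386, minus strand: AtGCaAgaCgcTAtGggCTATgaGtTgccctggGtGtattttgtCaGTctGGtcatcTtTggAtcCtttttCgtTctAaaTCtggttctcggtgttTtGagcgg
*Cacna1c* downstream exon, chr6:118691889-118691992, minus strand: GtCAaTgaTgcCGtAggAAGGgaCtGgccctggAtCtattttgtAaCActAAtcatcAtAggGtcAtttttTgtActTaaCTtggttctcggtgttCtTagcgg
*Cacna1d* upstream exon, chr14:30985142-30985245, minus strand: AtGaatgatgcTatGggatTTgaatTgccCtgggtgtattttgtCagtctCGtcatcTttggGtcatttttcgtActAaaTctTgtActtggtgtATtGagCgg
*Cacna1d* downstream exon, chr14:30984482-30984585, minus strand: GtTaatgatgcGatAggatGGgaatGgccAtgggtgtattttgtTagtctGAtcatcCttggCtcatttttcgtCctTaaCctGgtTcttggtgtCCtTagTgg

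The single exons below are shown because they carried the clearest differences. Exon 19 of *Cacna1e* lies in the part coding for the loop between the second and the third domain, and exons 25 and 26 of *Cacna1g* lie in that for the loop between the third and the fourth. For exon 25 the letters, all in capitals, are the 21 bases that the downstream one of its alternative 5′ splice sites adds.
*Cacna1e* exon 19 of 47, chr1:156320987-156321043, minus strand: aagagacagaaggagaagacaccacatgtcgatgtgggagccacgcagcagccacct
*Cacna1g* exon 25 extension, chr11:94287078-94287098, minus strand: GTAAGGAGAAGCAGATGGCCG
*Cacna1g* exon 26 of 38, chr11:94284985-94285038, minus strand: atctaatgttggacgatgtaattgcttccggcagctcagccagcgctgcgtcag
*Cacna1g* exon 34 of 38, chr11:94276245-94276388, minus strand: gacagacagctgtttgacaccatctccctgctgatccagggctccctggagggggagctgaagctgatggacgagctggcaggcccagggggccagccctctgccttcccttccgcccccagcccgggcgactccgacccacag
*Cacna1g* exon 35 of 38, chr11:94274404-94274538, minus strand: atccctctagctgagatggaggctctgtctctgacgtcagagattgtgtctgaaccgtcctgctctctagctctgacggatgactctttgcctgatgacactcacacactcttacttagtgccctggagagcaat

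The labels were checked first. The targeted exon 4 of *Ptbp2* had a PSI, the percentage of transcripts that include an exon, of 0.1% in the NesKO, 99.9% in the E18 WT, 15.9% in the EmxKO and 67.5% in the library labelled WT at P1. That last library held 604 reads joining exon 3 to exon 5, against 1 in the E18 WT, so the exon separates the P1 libraries less than its labels would have it, and P1 WT below means the library so labelled. Reads on distinct exon junctions numbered 48239933 in the NesKO, 50074568 in the E18 WT, 82960442 in the EmxKO and 83241630 in the P1 WT. The cortical marker *Tbr1* stood at 26.6 and 32 RPM (junction reads of the gene, scaled to library depth) at E18 and at 92.9 and 96.6 at P1, and the cortical marker *Bcl11b* at 24.2 and 34.2 and at 16.2 and 18.2. Markers of other brain regions summed to 33.9 and 36 at E18 and to 0.193 and 0.0721 at P1, with the hindbrain gene *Hoxb3* at 0 in both P1 libraries. At E18 these markers went opposite ways, with *Hoxb3* at 0.354-fold and *Slc6a5* at 0.494-fold in the NesKO and *Barhl1* at 1.31-fold and *Th* at 1.32-fold. Red cell transcripts summed to 1430 and 1090 RPM in the NesKO and E18 WT, and to 161 and 168 in the EmxKO and P1 WT. In the same order, microglial ones summed to 76.7 and 55.7 RPM and to 46 and 30. Progenitor markers summed to 512 and 447 and to 247 and 284, and muscle ones to 9.72 and 5.37 and to 4.53 and 3.53. The members of these 2 sums went different ways. *Vim*, *Pax6* and *Nes* were at 1.19-fold, 1.04-fold and 0.858-fold in the NesKO and at 0.874-fold, 0.713-fold and 1.07-fold in the EmxKO. *Acta1* was at 2.34-fold and 1.45-fold, and *Myh3*, on fewer than 100 reads in each library, at 0.764-fold and 0.885-fold. The neuronal markers *Tubb3*, *Map2*, *Snap25* and *Stmn2* summed to 1710 and 1930 at E18 and to 2620 and 2730 at P1, sums that *Tubb3* dominates. *Snap25* was at 0.468-fold in the NesKO and 0.506-fold in the EmxKO, and *Map2* at 0.702-fold and 0.579-fold. Astrocyte markers summed to 222 and 339 RPM at E18 and those of the oligodendrocyte lineage to 47.2 and 73.8. The part of these differences in the values below was not tested, and in bulk tissue a change in the mix of cells cannot be told apart from a change within them.

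Most of the 358 exons were included throughout. Of the 341 with at least 20 junction reads and a usable value in every library, 313 had a PSI of 95 or more in all 4 libraries and 28 fell below that in 1 or more. For 7 exons the tables list a PSI of 0 where reads entered the exon and none skipped it, and these were set aside. The median member exon rested on 348 junction reads in the NesKO, 412 in the E18 WT, 476 in the EmxKO and 433 in the P1 WT, at which 3 reads make 0.862, 0.729, 0.63 and 0.693% of the reads. A middle exon counted as called where its PSI differed by 10 points or more and each library had 20 or more junction reads. Loss of PTBP2 at E18 met this in 10 of 344 member exons (2.91%), 3 higher and 7 lower in the knockout, where 1.82% of all 125246 exons did, 1353 higher and 929 lower. At P1 it was met in 4 of 347 (1.15%), 1 higher and 3 lower, against 1.18% of 124432, 930 higher and 540 lower. The median absolute difference was 0 points at both stages, among the members and among all exons. In total 13 exons of 8 genes were called at a stage, and 1 of them, in *Cacna1e*, at both and in the same direction. No exon of *Cacna1b* or *Cacnb1* was called. The lengths of 10 of the 13 are multiples of 3, and 3 of the 13 carry the cassette label in the database.

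PSI was also computed from the reads on the 3 junctions of a trio alone, as the mean of the reads entering and leaving the exon over its sum with the skipping reads. By this measure alone 5 member exons differed by 10 points at E18, 2 higher and 3 lower, and 6 at P1, 4 higher and 2 lower, so the balance of directions at P1 turned. Of those called by deposited PSI, 5 of the 10 at E18 and 3 of the 4 at P1 also differed by 10 points in the same direction. On these reads Fisher's exact test (two-sided, p adjusted by Benjamini-Hochberg across every exon of the stage) was run, and 1 called member exon had an adjusted p below 0.05 at each stage, exon 34 of *Cacna1g* at E18 and exon 19 of *Cacna1e* at P1. Such a test compares the reads of 2 libraries and not the genotypes. The intervals given with these values are Wilson intervals at the 95% level and, like the smallest visible shares, cover counting error only.

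**Figure D1:**
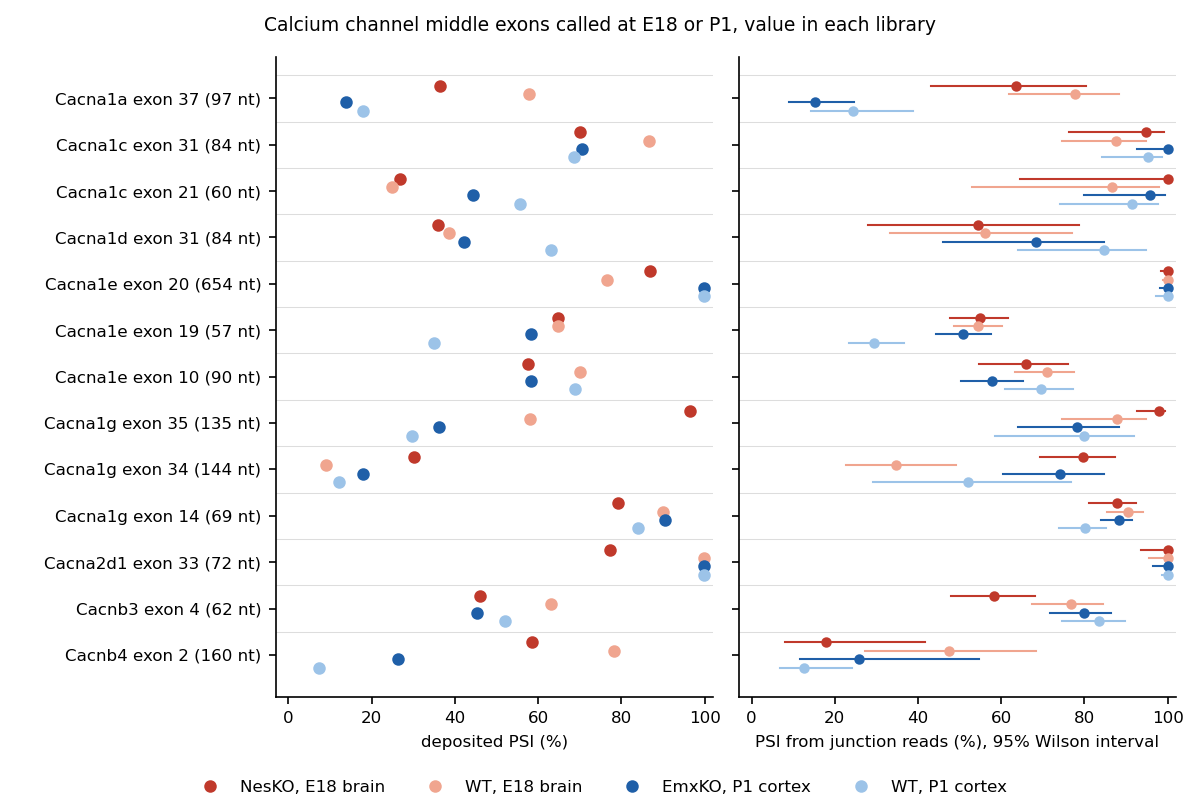
PSI of the 13 middle exons called at E18 or P1, 1 row per exon and 1 point per library, as deposited (left, in percent) and from junction reads with 95% Wilson intervals (right, in percent). Exon 34 of *Cacna1g* lies higher in both knockouts than in their WT on both scales, and exon 19 of *Cacna1e* is low in the P1 WT alone, while exon 20 of *Cacna1e* and exon 33 of *Cacna2d1* differ on the left and sit at 100% on the right.

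The T-type channel gene *Cacna1g* held the most called exons at E18, with 3. Exon 34 (144 nt) had a deposited PSI of 30.2% in the NesKO, 8.9% in the E18 WT, 18.0% in the EmxKO and 12.2% in the P1 WT. It was highest in the NesKO and higher in each knockout than in the WT of its stage, by 21.3 points at E18 and 5.8 at P1. From junction reads the PSI was 79.7% in the NesKO (69.2 to 87.3) and 34.8% in the E18 WT (22.7 to 49.2), and these reads differed (two-sided Fisher's exact test, Benjamini-Hochberg adjusted p = 0.00081). At P1 it was 74.2% (60.5 to 84.7) in the EmxKO and 52.0% (29.1 to 76.8) in the WT, where 19 reads in the WT were too few for a call. The next exon, exon 35 (135 nt), had a PSI of 96.6% in the NesKO, 58% in the E18 WT, 36.2% in the EmxKO and 29.8% in the P1 WT. Its 38.6-point difference at E18 was the largest deposited difference among the member exons called, but from junction reads the same exon went from 87.8% (74.5 to 94.7) to 97.9% (92.7 to 99.4), on 5 and 2 skipping reads, with an adjusted p of 1 in Fisher's exact test.

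The trios of exons 34 and 35 use each other as a neighbor and do not contain the most used path, in which exon 33 is joined directly to exon 36. That junction had 246 reads in the NesKO, 330 in the E18 WT, 385 in the EmxKO and 247 in the P1 WT. The reads at the shared splice sites were therefore also summed over all paths, a choice made after the values were seen and given without a test. Of the reads leaving exon 33, those entering exon 34 were 58 of 319 in the NesKO (18.2%, 95% interval 14.3 to 22.8) and 18 of 378 in the E18 WT (4.76%, 3.03 to 7.4). At P1 they were 45 of 442 in the EmxKO (10.2%, 7.7 to 13.4) and 6 of 259 in the WT (2.32%, 1.07 to 4.96). The difference was 13.4 points at E18 (95% interval 8.76 to 18.3) and 7.86 points at P1 (4.24 to 11.3), so exon 34 was used more in both knockout libraries and stayed the minor form in all 4. Of the reads entering exon 36, those from exon 35 made up 34% in the NesKO and 13.9% in the E18 WT, a difference of 20.2 points (14.2 to 26). At P1 they made up 14.7% and 12.8%, and the difference of 1.87 points (-3.39 to 6.75) was within counting error.

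The loop exons 25 and 26 of *Cacna1g* also had a higher deposited or summed inclusion in each knockout. The alternative 5′ splice site of exon 25, which adds 21 nt, had a PSI of 59.8% in the NesKO, 38.8% in the E18 WT, 37.7% in the EmxKO and 25.4% in the P1 WT, on 93, 152, 129 and 79 junction reads. It was the one member event other than a middle exon called at both stages, 21 points higher in the NesKO and 12.3 higher in the EmxKO. Across the 9 such events of the 10 genes with enough reads, 2 were called at E18 and 1 at P1, all higher in the knockout, where 8.79% of all such events were called at E18 and 5.90% at P1. The second E18 call, the 1050-nt alternative 3′ splice site extension of *Cacna1d*, rested on 22 and 35 reads (PSI of 41.0% and 29.9%, and of 1.7% and 1.8% in the EmxKO and P1 WT). Exon 26 (54 nt) follows the exon 25 choice and is listed with each of the exon 25 ends. With the shorter end its PSI was 91.4% in the NesKO, 89.9% in the E18 WT, 80.8% in the EmxKO and 72.3% in the P1 WT, and with the longer end 93.4%, 81.2%, 99.3% and 87.9%. Of all reads leaving either end of exon 25, 79 of 99 entered exon 26 in the NesKO (79.8%, 70.8 to 86.5) and 138 of 233 in the E18 WT (59.2%, 52.8 to 65.3). At P1 the counts were 103 of 155 in the EmxKO (66.5%, 58.7 to 73.4) and 68 of 146 in the WT (46.6%, 38.7 to 54.7). The share was thus 20.6 points higher (9.73 to 29.9) and 19.9 points higher (8.68 to 30.4) in the EmxKO, whose WT also held reads that skip exon 4 of *Ptbp2*. The form with the longer end and exon 26 together made up 24% of these reads in the E18 WT and 48.5% in the NesKO, and 6.16% in the P1 WT and 15.5% in the EmxKO. The longer end joined to exon 27 was lower in the knockouts, at 3.03% against 10.3% at E18 and 0.645% against 3.42% at P1. Summed over both next exons, the longer end was 17.2 points higher at E18 (5.6 to 28.4) and 6.54 points higher at P1 (-1.14 to 14.1), the latter within counting error. The reads entering exon 26 were far fewer than those leaving it, 20 against 263 in the trio with the shorter end in the NesKO, so PSI and these shares weigh the exon differently.

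Exon 14 of *Cacna1g* (69 nt, chr11:94301023-94301091, minus strand) went the other way at E18, with a PSI of 79.2% in the NesKO, 90.0% in the E18 WT, 90.6% in the EmxKO and 84.0% in the P1 WT. Its difference at E18 was -10.8 points and in junction reads -2.67 points, where the intervals of 81.0 to 92.5% and 85.4 to 94.0% overlapped.

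Among the presynaptic channels, *Cacna1e* held the other difference that passed the exact test. Exon 19 (57 nt) had a PSI of 64.8% in the NesKO, 64.8% in the E18 WT, 58.2% in the EmxKO and 35% in the P1 WT. The P1 WT library was low and the other 3 lay together, so the exon was 23.2 points higher in the EmxKO and did not differ at E18. From junction reads the PSI was 50.9% (44.3 to 57.6) in the EmxKO and 29.4% (23.4 to 36.7) in the P1 WT, on 105 and 126 skipping reads (two-sided Fisher's exact test, Benjamini-Hochberg adjusted p = 0.0075). At E18 it was 54.8% and 54.5%. Between the WT libraries the exon was 29.8 points lower at P1, where the EmxKO stood at 58.2%.

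Exon 10 of *Cacna1e* (90 nt, chr1:156335174-156335263, minus strand) was the one exon called at both stages. Its PSI was 57.5% in the NesKO, 70.0% in the E18 WT, 58.2% in the EmxKO and 68.8% in the P1 WT, so the knockouts lay together below both WT libraries, by 12.5 and 10.6 points. In junction reads the difference was -5.01 points at E18 and -11.8 at P1, with an adjusted p of 1 in Fisher's exact test at both stages. Exon 20 (654 nt) was called at E18, at 86.9% against 76.5%, with no skipping read among 471 and 721 junction reads. Its PSI was 99.9% in both P1 libraries.

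*Cacna1a* had 1 call, exon 37 (97 nt, chr8:87138594-87138690, plus strand), one of the alternative exons for the EF-hand-like part of the channel tail. Its PSI was 36.5% in the NesKO, 57.8% in the E18 WT, 13.8% in the EmxKO and 17.8% in the P1 WT. The E18 libraries lay above the P1 libraries, and the 21.3-point difference at E18 rested on 36 and 64 junction reads (63.6%, 43.0 to 80.3, against 77.8%, 61.9 to 88.3). The corresponding 97-nt exon of *Cacna1b* (chr2:24480758-24480854, minus strand) had a PSI of 86.8%, 90.4%, 81.6% and 77.6% in the same order, with differences of 3.6 and 4.0 points between knockout and WT in opposite directions. Other alternative exons of these channels were also close between knockout and WT, apart from a 6-nt exon whose level was uncertain. The 36-nt exon 44 of *Cacna1a* was included at 12.0, 14.5, 18.4 and 16.3%, and the 12-nt exon 25 of *Cacna1b* at 83.6, 81.8, 69.8 and 73.7%. An 84-nt cassette exon of *Cacna1b* (chr2:24525593-24525676, minus strand) stood at 18.7, 11.9, 12.3 and 8.2%, a little higher in each knockout and under the 10-point limit, on 388, 403, 336 and 270 skipping reads. The 84-nt exon 31 of *Cacna1a* was included at 96.6, 97.4, 96.1 and 91%. The 6-nt exon, in *Cacna1b*, was listed at 1.8, 1.2, 2.8 and 1.6%, with 0 reads entering it in its own trio in every library. In the trios of the exon before it, 86, 69, 30 and 23 reads entered the 6-nt exon. There 276, 423, 236 and 174 reads passed it by. Its level and its difference between knockout and WT are thus uncertain.

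In the L-type genes the pairs of alternative exons were measured as the share of the upstream exon, averaging the reads on the entry and the exit junction. The annotation numbers both 104-nt exons of *Cacna1c* as exon 8, of a 48-exon and of a 49-exon transcript, and does not carry the names 8 and 8A, so they are told apart here by position. The upstream exon held 90.0% of the pair in the NesKO (85.4 to 93.1), 89.6% in the E18 WT (84.4 to 92.9), 93.2% in the EmxKO (89.9 to 95.5) and 91.6% in the P1 WT (87.6 to 94.1). The 4 intervals overlap. The downstream exon held 9.96% and 10.4% at E18, on 23.5 and 21.5 mean reads, and 6.79% and 8.43% at P1, on 22.0 and 24.5. Its entry and exit reads were uneven at P1, 4 and 40 in the EmxKO and 12 and 37 in the WT. The trio of the exon before it lists 23, 30, 25 and 36 entry reads in the order above, against 22, 19, 4 and 12 in its own trio. The level of its share, and that at P1 most of all, thus depends on the trio used. The share of the upstream exon differed by 0.479 points at E18 (95% interval -5.24 to 6.45) and by 1.64 points at P1 (-2.51 to 6.19), with adjusted p of 1 and 0.86 in Fisher's exact test (Benjamini-Hochberg, across the 124 and 134 pairs of the stage). A shift of 10 points lies outside both intervals, which do not cover the choice of trio, and shifts within them were not detectable at this depth.

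The same pair of *Cacna1d* was more even. Its upstream exon held 73.2% (65.3 to 80.1) in the NesKO, 59.1% (50.7 to 66.8) in the E18 WT, 78.9% (72.2 to 84.4) in the EmxKO and 74.4% (66.5 to 80.5) in the P1 WT. The E18 WT was the low library, 14.2 points under the NesKO (3.08 to 25), and this was the one member pair past 10 points, with an adjusted p of 0.21 in Fisher's exact test. Of all pairs, 13.7% passed 10 points at E18 and 15.7% at P1. At P1 the difference was 4.54 points (-4.56 to 14.1). Taken on its own against its skipping reads, the downstream exon had a deposited PSI of 81.2% and 89.6% at E18 and of 57.9% and 57.3% at P1.

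A pair of 84-nt exons in each L-type gene lies at the place of the third membrane segment of the fourth domain. The downstream exon of *Cacna1d* is annotated only in a transcript without coding sequence there. In *Cacna1d* the upstream exon (chr14:30903008-30903091, minus strand) held 4.44% in the NesKO, 8.74% in the E18 WT, 9.02% in the EmxKO and 15% in the P1 WT, a difference of -4.29 points at E18 and -6.02 at P1, with adjusted p of 0.95 and 0.60 in Fisher's exact test. This exon was called at P1 by its deposited PSI, 42.2% against 63.2%, on 32 and 36 junction reads. In *Cacna1c* the upstream exon (chr6:118588445-118588528, minus strand, exon 31) held 15% (10 to 22.7), 28.4% (21.4 to 37), 20.1% (15.7 to 25.8) and 26.1% (19.8 to 33.6) in the same order. The difference was -13.4 points in the NesKO (-23.3 to -3.01) and -6.02 points in the EmxKO (-14.7 to 2.44). In both L-type genes and at both stages the knockout library thus had the lower share of the upstream exon. Only the *Cacna1c* difference at E18 was beyond counting error, and the *Cacna1d* intervals ran from -11.8 to 2.55 and from -14.6 to 2.14. From the exit junctions alone, the *Cacna1d* differences were -1.37 and -0.527 points. The *Cacna1c* pair was added after the values were seen, since 1 annotated transcript holds both exons, and has no test. Its exon 31 was called at E18 by deposited PSI as well, at 70.1, 86.7, 70.6 and 68.6%, but junction reads against skipping gave 94.9% and 87.7% at E18, the opposite direction, on 1 and 5 skipping reads. The 60-nt exons 21 and 22 of *Cacna1c* were added in the same way, and the upstream exon (chr6:118624573-118624632, minus strand) held 7.14, 6.77, 8.12 and 10.2%. In its own trio 3, 3, 29 and 25 reads entered exon 21. The trios of the exon before the pair list 12, 15, 82 and 61 reads entering exon 21 and 74, 61, 236 and 175 entering exon 22. The level of this share is thus uncertain. Exon 21 was called at P1 by deposited PSI (44.3% against 55.7%), on 1 and 2 skipping reads, where junction PSI was 95.7% and 91.5%.

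**Figure D2:**
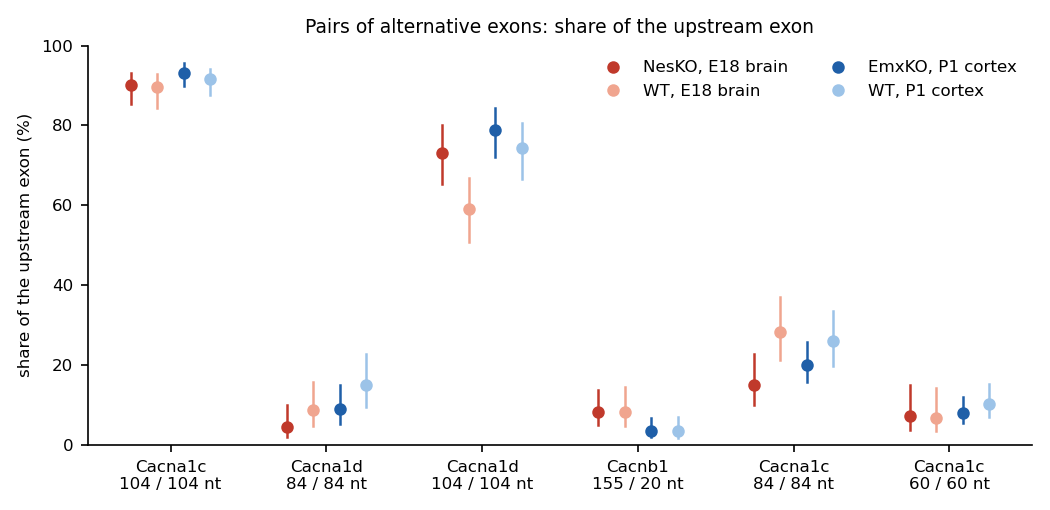
Share of the upstream exon, in percent of the mean junction reads of both exons, for 6 pairs of alternative exons, with 1 point per library and 95% Wilson intervals. The 104-nt pair of *Cacna1c* stays between 89.6 and 93.2% in all 4 libraries, and the 104-nt pair of *Cacna1d* is lowest in the E18 WT. Both 84-nt pairs lie lower in each knockout than in its WT, with overlapping intervals.

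A 75-nt exon of *Cacna1c* (exon 10 of 48, chr6:118665921-118665995, minus strand) had a PSI of 9.4% in the NesKO, 12.9% in the E18 WT, 2.4% in the EmxKO and 0.9% in the P1 WT, so it was a minor form that was lower at P1 and close between knockout and WT.

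The auxiliary subunits had 3 calls at E18 and none at P1. The 62-nt exon of *Cacnb3* (chr15:98471120-98471181, plus strand) had a PSI of 46.0, 63.0, 45.3 and 52.0% in the order above, 17 points lower in the NesKO. Junction reads gave 58.2% (48.0 to 68.1) and 76.8% (67.3 to 84.4) at E18. Nearly all of the inclusion reads were on its upstream junction, 98 against 5 in the NesKO. The 62-nt exon is the shorter form of a 65-nt exon with an alternative 3′ splice site. The 65-nt form had a PSI of 99.8, 99.9, 99.9 and 99.7%, and its 3-nt extension 93, 92.7, 91 and 89.6%. The 62-nt trio also passes by a 20-nt exon with a PSI of 99.2, 99.2, 99 and 98.7%. The 17-point difference thus concerns that path and was not seen for the 65-nt form. The 160-nt cassette exon 2 of *Cacnb4* (chr2:52411722-52411881, minus strand) had a PSI of 58.5, 78.2, 26.4 and 7.3%, on 23, 28, 17 and 67 junction reads. It was lower in the knockout at E18 and, below the read minimum, higher at P1, and the intervals from junction reads were wide at E18, from 8.07 to 41.6% and from 27.3 to 68.3%. The 72-nt exon 33 of *Cacna2d1* (chr5:15863584-15863655, plus strand) was at 77.2% in the NesKO and at 99.9% in the other 3 libraries, with no skipping read among 109 junction reads in the NesKO. Its difference of -22.7 points was -10.6 before the SpliceTrap correction. Exon 9 of *Cacnb3* (110 nt) had 114 and 83 skipping reads at E18 and a PSI of 81.1% against 89.0%, under the 10-point limit. The 57-nt exon 19 of *Cacna2d1* was listed at 0.5, 0.5, 0.1 and 0.1%, with 0 reads entering or leaving it in its own trio. In the trios of the exon after it, 7, 3, 19 and 50 reads left the 57-nt exon and 32, 36, 118 and 376 passed it by. Its level is thus uncertain. In *Cacnb1* the 155-nt and 20-nt alternative exons for the loop between the conserved domains of the beta subunit stood at 8.23, 8.20, 3.50 and 3.53% for the longer, upstream exon, with no difference between knockout and WT over 0.1 points. In its own trio no read entered the 20-nt exon in any library, although 235 to 469 left it. In the trios of the exon before it, 64, 67, 246 and 226 reads entered the 20-nt exon. There 21, 24, 53 and 54 entered the 155-nt exon, against 15, 13, 15 and 13 in its own trio. The level of that share is thus uncertain.

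Between the WT libraries 14 of 345 member exons (4.06%) differed by 10 points, 3 higher and 11 lower in the P1 cortex, against 3.20% of 122272. Stage, brain region and library protocol cannot be told apart here. The lower exons included exon 37 of *Cacna1a* (57.8 to 17.8%), exon 35 (58 to 29.8%) and exon 26 (89.9 to 72.3%) of *Cacna1g*, the 97-nt exon of *Cacna1b* (90.4 to 77.6%) and exon 2 of *Cacnb4* (78.2 to 7.3%). Summed over all paths, exon 35 gave 13.9% of the reads entering exon 36 in the E18 WT and 12.8% in the P1 WT. That difference of -1.03 points (-6.11 to 4.31) was within counting error. A long exon in each of *Cacna1a* and *Cacna1e* differed in deposited PSI with almost no skipping read. Exon 19 of *Cacna1a* (675 nt) went from 99.9 to 64.0% with 1 skipping read among 327, and exon 20 of *Cacna1e* (654 nt) from 76.5 to 99.9% with none among 280.

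The amount of transcript was measured in RPM, the reads per 1000000 reads on distinct junctions of the library. In RPM per junction, the order in the E18 WT was *Cacnb3* (10.3), *Cacna1g* (5.30), *Cacna1a* (4.82), *Cacnb1* (4.67), *Cacna1e* (3.68), *Cacna1b* (3.45), *Cacna1c* (2.53), *Cacna1d* (1.99), *Cacna2d1* (1.26) and *Cacnb4* (0.593). In the P1 WT *Cacnb3* again led (8.68), *Cacnb1* (4.05) and *Cacna2d1* (3.72) followed, and *Cacnb4* was last (1.33). Every junction with a read in any library was counted, so the order also depends on how many rare junctions a gene has. In *Cacna1c* 49 of 81 junctions had 20 reads in both E18 libraries, and in *Cacnb4* 10 of 22. Without replicates it is not known which neighbors in this order differ.

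At E18 no channel gene reached a 2-fold difference, and the folds of knockout over WT lay between 0.669 (*Cacna2d1*) and 1.11 (*Cacnb1*), where 0.856% of all 11449 genes did. Relative to genes of the same GC content, the lowest at E18 were *Cacna1g* (0.708) and *Cacna1a* (0.735), and *Cacna2d1* was at 0.821. At P1 2 of the 10 did, where 8.08% of all 11390 genes did. *Cacna2d1* had 44.5 RPM in the NesKO, 66.6 in the E18 WT, 66.1 in the EmxKO and 197 in the P1 WT, which is 0.336-fold at P1. *Cacnb4* had 9.66, 13, 9.09 and 29.2, which is 0.311-fold at P1. In both genes the P1 WT stood above the other 3 libraries. Every junction with 20 reads in both P1 libraries was lower in the EmxKO, 38 of 38 in *Cacna2d1* and 11 of 11 in *Cacnb4*, with quartiles of the junction folds of 0.307 to 0.368 and 0.302 to 0.328. The other 8 channel genes were higher in the EmxKO, from 1.18-fold (*Cacna1d*) to 1.45-fold (*Cacna1g*), and 7 of them were lower in the NesKO.

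The folds moved with the GC content of the transcript across all genes. At P1 the median fold rose from 0.51 in the 10% of genes with the lowest GC content to 1.21 in the 10% with the highest (Pearson's r of 0.708 with the log2 fold over 11236 genes, which are not independent replicates), and at E18 from 0.815 to 1.08. *Cacna2d1* (40.3% GC) and *Cacnb4* (40.5%) are in the lowest group, and the other 8 genes lie between 48.3 and 59.7%. Against the median of their own GC group, a comparison chosen after the values were seen, *Cacna2d1* was at 0.659-fold and *Cacnb4* at 0.61-fold at P1, and neither passed 2-fold. The other 8 were then between 0.981-fold (*Cacnb1*) and 1.39-fold (*Cacna1e*).

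**Figure D3:**
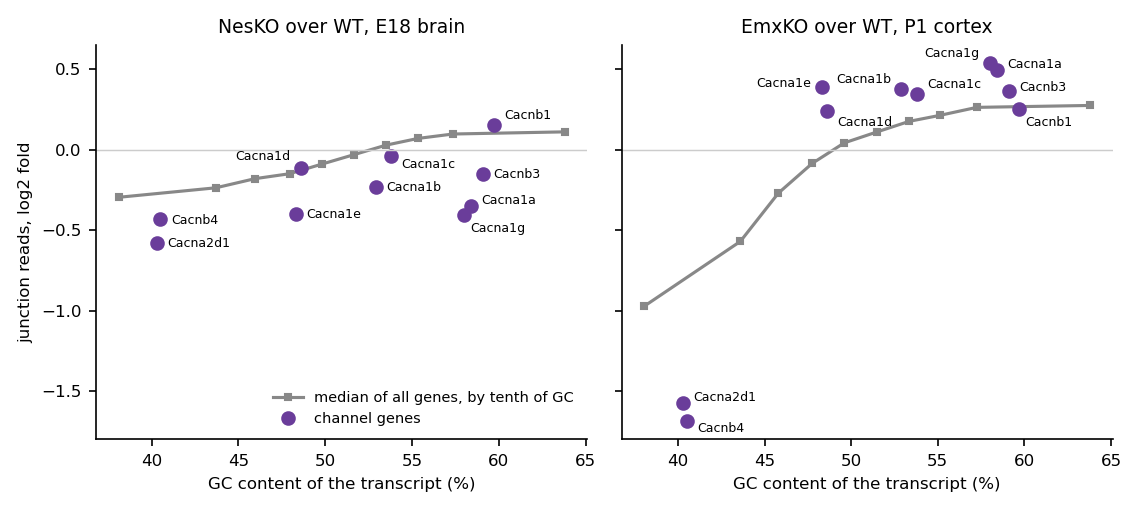
Log2 fold of junction reads, knockout over WT, against the GC content of the transcript in percent, at E18 (left) and P1 (right). Grey squares are the medians of all genes in each of 10 groups by GC content, drawn at the middle of the group, and purple points are the 10 channel genes. *Cacna2d1* and *Cacnb4* lie at the low-GC end, below the falling median at P1, and the other 8 lie near or above it.

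Of the other channel subunits, 14 of 15 listed genes were in the tables, and 1 exon was called among 168 at E18 (0.595%) and 171 at P1 (0.585%), the same one at both stages, where 1.82% and 1.18% of all exons were. This 21-nt exon of *Cacna2d2*, an alpha2-delta subunit (chr9:107421510-107421530), had a PSI of 93.6% in the NesKO, 56.0% in the E18 WT, 74.2% in the EmxKO and 55.7% in the P1 WT. It was higher in each knockout by 37.6 and 18.5 points, on 4 and 37 skipping reads at E18 (two-sided Fisher's exact test, Benjamini-Hochberg adjusted p = 0.013) and on 36 and 34 at P1 (adjusted p = 1). Of the genes that bind or work with the channels, such as the active zone proteins RIM and ELKS and the calcium release channels, 24 of 25 were in the tables. Among their exons 18 of 781 were called at E18 (2.30%), 13 higher and 5 lower, and 11 of 763 at P1 (1.44%), 9 higher and 2 lower, shares close to the 1.82% and 1.18% of all exons. Of these, 9 and 10 had a skipping read. The largest difference at each stage was in *Ryr3*, a ryanodine receptor, for an 82-nt exon at E18 (99.9% against 56.3%, on 33 and 47 reads) and a 131-nt exon at P1 (86.7% against 67.9%). The 66-nt exon of *Rims2*, an active zone protein, chosen after its values were seen, had a PSI of 88.5, 54.6, 87.4 and 73.9% and lay higher in each knockout than in its WT.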

How the data were processed

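The authors extracted RNA from E18 brain and P1 cortex with Trizol, made TruSeq libraries, sequenced 100-nt paired ends and mapped the reads with SpliceTrap to a database of exon trios. The submitters' notes also name CASAVA, TopHat, Cufflinks and the build mm9. The deposited inclusion ratio is a fraction from 0 to 1, given before and after the SpliceTrap correction, and the corrected one in percent is the PSI. The deposited junction reads are raw counts per trio. Ratios and counts of 1 library per group were used as deposited, with no unmatched sample column (0).

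Exon starts were recovered from the trio identifiers. Of 228333 trios, 209925 were named by the exon and both introns, 178 by both introns, 15295 by a shared boundary and 2935 not at all. The annotation is on GRCm38 and no coordinate was converted. Exon numbers and sequences are from GENCODE transcripts, numbered in the longest principal one that holds the exon. For each middle exon the trio with most junction reads stood for it. Where trios list different reads for 1 junction, the highest was used for shares over all paths and for gene levels, which needed 100 reads in both libraries. Fisher's exact tests used rounded means of the 2 inclusion junctions, and differences of shares have Newcombe intervals. Scripts were tested on simulated reads. Python 3.11.15, numpy 2.4.6, pandas 2.3.3, scipy 1.17.1 and matplotlib 3.10.9 were used.

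The members, the gene lists and the rule for named exons (every called member exon, every mutually exclusive member pair and known alternative exons) were chosen with earlier results of these data known. The alternatives were another inclusion measure, read minimum, cutoff, trio and exon class, other junctions for the pairs and other scalings for the levels. Intron sequence was not analysed here.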

Additional observations from a re-analysis of the deposited data

Results flagged for a closer look

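The 84-nt exon 31 of *Cacna1c* drew attention because the knockout differed from the WT in opposite directions at the 2 stages, by -16.6 PSI points at E18 and 2.0 at P1, a gap of -18.6 points. From junction reads the differences were 7.22 and 4.76 points, in 1 direction. The 69-nt exon 14 of *Cacna1g* was lower by 10.8 points in the NesKO (-10.8) and higher by 6.6 in the EmxKO, a gap of -17.4 points, and from junction reads by -2.67 and 8.18. With 1 library per group the difference between the stages was not tested for either exon.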

How the results depend on the processing

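The 10 E18 calls became 5 with PSI from junction reads alone and 5 where both measures had to differ by 10 points the same way, 4 at a cutoff of 20 points, 1 with an adjusted p below 0.05 in Fisher's exact test added, and 2 among exons labelled cassette. The 4 P1 calls, 1 higher and 3 lower, became 6 with PSI from junction reads alone, 4 higher and 2 lower, and 2 at a minimum of 50 reads, 2 at 20 points, 1 with the adjusted p and 1 among cassette exons. The 14 differences between the WT libraries became 8 at 20 points, 5 with the adjusted p, 3 among cassette exons and 8 with both measures. Of the other events, 1 of 2 at E18 was left at a minimum of 50 reads and 1 at 20 points, and 0 of 1 at P1 at 20 points. The pair called at E18 was lost with shares from deposited ratios (0 pairs), and 2 were past 10 points with the further *Cacna1c* pairs. The 2 genes past 2-fold at P1 became 0 relative to genes of the same GC content. From junction reads alone, 2 of 14 named differences reversed, exon 31 of *Cacna1c* at E18 to 7.22 points and exon 21 of *Cacna1c* at P1 to 4.26 points, 5 moved beyond counting error in the same direction or to 0, and 7 did not. Before the SpliceTrap correction exon 33 of *Cacna2d1* differed by -10.6 points in place of -22.7. The cause was not tested. The requirement of both measures or of a skipping read, the further pairs and the GC comparison were chosen after seeing the data. No replicate could be left out, since each group has 1 library. No paired analysis was possible because each group has 1 library.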
